A study of Mus musculus with 8 samples.

Results

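The semaphorin, ephrin, Flrt, netrin, Slit and Unc5 ligands and receptors that guide growing axons and migrating cells were followed in cultured mouse hepatocytes. Members were the probe sets whose single platform symbol begins with Sema and a digit, Plxna to Plxnd, Epha, Ephb, Efna, Efnb, Flrt, Robo or Unc5, or is Slit1, Slit2, Slit3, Ntn1, Ntn4, Nrp1 or Nrp2. This gave 155 probe sets of 70 genes, out of 45036 probe sets and 18192 named genes. The prefix also took in Plxna4os1, an antisense transcript, and Unc5cl, a protein that is related to the Unc5 receptors by its sequence. The cells were AML12, an immortalized mouse hepatocyte line, and AML12 transfected with v-erbA, a viral form of the thyroid hormone receptor that represses genes under nuclear receptor control. Each line was left untreated or exposed to retinoic acid (RA, 1 µM), and RNA was taken at 3 h or 24 h. The 8 combinations were untreated AML12 at 3 h and at 24 h, RA-treated AML12 at 3 h and at 24 h, and the same 4 for the v-erbA line, with 1 array each. The labels used here do not say which promoter drives v-erbA, whether the transfected line is 1 clone or what vehicle the untreated cells received. Times were taken from the sample titles, which for 3 of 4 samples of 24 h differ from the description (3 h). No combination was replicated, so every p-value below sets an effect against the departure of these arrays from the fitted pattern. That departure may be technical and is not a spread between repeated cultures.

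Guidance molecules are named for axons but act in many tissues, where they set cell contacts, migration and boundaries. Semaphorins signal through plexins, with neuropilins as co-receptors for the secreted class. Ephrins are tethered to the membrane and bind Eph receptor tyrosine kinases on the neighbouring cell. Netrins bind Unc5 receptors and neogenin, and Slits bind Robo receptors. Flrt proteins are transmembrane proteins with leucine-rich repeats that bind latrophilins and Unc5 receptors and take part in fibroblast growth factor signalling.

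Signals are in the linear array units of the deposited table, in which the pooled median of all values was 73.5 units. A probe set was tested where at least 2 of the 8 arrays exceeded that median. Of the 155 guidance probe sets 77 were tested, covering 47 genes. Of these 53 exceeded the median on all 8 arrays and 24 on 2 to 7. The other 78 were dim, with a highest signal of 94.4 units and a median of 22.6 units. In 23 genes no probe set was tested: Epha3, Epha5, Epha6, Epha10, Ephb1, Ephb6, Ntn1, Plxna4, Plxna4os1, Robo1, Robo2, Sema3b, Sema3d, Sema3g, Sema5a, Sema6a, Sema6b, Slit2, Slit3, Unc5a, Unc5c, Unc5cl and Unc5d. All 8 ephrin genes, 14 of 20 semaphorins and 8 of 10 plexin entries had a tested probe set, against 7 of 13 Eph receptors, 2 of 4 Robo receptors and 1 of 3 Slits. Effects were estimated with limma on log2(signal + 19.9), and a probe set was called at a Benjamini-Hochberg adjusted p under 0.05 over all 24955 probe sets tested. Because of the offset, a difference between dim signals comes out smaller than their ratio.

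Hepatocyte markers were high throughout, with albumin (Alb) at 9364 to 11053 units and transthyretin (Ttr) at 10526 to 10879 units, and 9 of the 11 hepatocyte markers found exceeded the median on all arrays. The summed hepatocyte markers were 31274 to 44323 units on the AML12 arrays and 27745 to 33447 on the v-erbA arrays, which overlap. Members went both ways: Apoa1 was 1823 to 7093 units in AML12 and 200 to 742 in the v-erbA line, and Serpina1b 779 to 1768 and 3115 to 5325. In all 5 of the 11 were lower and 1 higher in the v-erbA line with no overlap. All 4 biliary markers found exceeded the median on every array, with sums of 4772 to 5953 units in AML12 and 3240 to 4125 in the v-erbA line, although Krt7 was higher there (418 to 450 against 244 to 333 units). Of the 7 endothelial markers 0 exceeded the median on all arrays and 5 on none. Sums of the 7 stellate and mesenchymal markers were 278 to 351 units in AML12 and 430 to 536 units in the v-erbA line, with Dcn at 18.8 to 51.8 and 126 to 149 units and Pdgfrb at 25.9 to 39.6 and 2.4 to 17.5. Sums of the 6 neuronal markers were 312 to 437 and 528 to 626 units, and 3 of them exceeded the median on no array. Only 1 was higher in the v-erbA line with no overlap, Map2, at 35.4 to 56.8 and 155 to 215 units. Syt1 overlapped, at 207 to 290 and 242 to 285 units. Of the 6 macrophage markers 4 exceeded the median on no array. Their sums were 197 to 363 units in AML12 and 296 to 452 in the v-erbA line, with 2 higher there and 0 lower without overlap. In bulk RNA fewer cells of a type and less RNA per cell cannot be told apart.

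The first comparison asked which guidance genes responded to RA over both lines and both times. RA raised Flrt3 and lowered Sema6d, and no other guidance gene passed the threshold. Both tested Flrt3 probe sets rose by about a doubling, and Sema6d, a membrane-bound semaphorin that signals through A-type plexins, fell by 0.57 on the log2 scale. These were 3 of 77 guidance probe sets, 3.9%, against 1.15% of all probe sets tested. At an unadjusted p under 0.05 the share was 18.2% of the guidance probe sets and 11.6% of all.

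In untreated and RA-treated AML12 the Flrt3 probe set 1453102_at read 195 and 528 units at 3 h, and 110 and 264 units at 24 h. In the v-erbA line it read 222 and 434 units at 3 h, and 184 and 323 units at 24 h. The 4 treated arrays all lay above the 4 untreated arrays. Ratios of treated over untreated signal were 2.71 and 2.41 in AML12 and 1.95 and 1.75 in the v-erbA line. The fitted RA difference was 1.03 ± 0.12 (log2, SE; 95% interval 0.76 to 1.31; limma adjusted p = 0.00613). A second Flrt3 probe set, 1429310_at, read 142 and 398 units in AML12 at 3 h, 71.7 and 200 units at 24 h, and 148 and 310, then 148 and 262 units in the v-erbA line. Its treated and untreated arrays did not overlap either, with an RA difference of 1.09 ± 0.16 (SE, adjusted p = 0.0148). The call for 1453102_at held in each of the 8 fits that left out 1 array and was lost without the mean-variance trend (adjusted p = 0.0682, in a range from 2.03e-08). That for 1429310_at was lost without the untreated AML12 array of 3 h (adjusted p = 0.0524) and without the untreated v-erbA array of 3 h (0.0558), over a range of 3.28e-08 to 0.0891 among its 18 alternatives. Without the untreated AML12 array of 3 h the number of guidance probe sets called fell from 3 to 1.

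Sema6d probe set 1453055_at read 257 untreated and 145 units with RA in AML12 at 3 h, and 228 and 125 units at 24 h. The v-erbA line gave 130 and 104 units at 3 h, and 155 and 105 units at 24 h. Treated arrays were lower in 4 of 4 pairs, but the untreated v-erbA array of 3 h lay below the highest treated array. The RA difference was -0.57 ± 0.10 (SE, adjusted p = 0.0317). This call was lost in 5 of the 8 fits without 1 array: untreated AML12 at 3 h (0.111), RA-treated AML12 at 3 h (0.152), untreated AML12 at 24 h (0.0846), RA-treated AML12 at 24 h (0.0852) and untreated v-erbA at 24 h (0.139), within 2.58e-04 to 0.152 over all 19 alternatives. Its 3 other probe sets were dim and not tested.

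RA acts through retinoic acid receptors, which bind paired hexamers related to AGGTCA, so the 250 bases before the annotated starts of the RA-responsive genes are shown (RefSeq, mouse build GRCm38.p6, 5′ to 3′ on the gene's strand). Capitals would mark AGGTCA on either strand, or one of its variants AGTTCA and GGGTCA, or GGTTCA as the fourth. The windows are those of Flrt3 at chr2:140671477-140671726 (minus strand) and of both annotated Sema6d starts at chr2:124089719-124089968 and chr2:124653331-124653580 (plus strand).
Flrt3: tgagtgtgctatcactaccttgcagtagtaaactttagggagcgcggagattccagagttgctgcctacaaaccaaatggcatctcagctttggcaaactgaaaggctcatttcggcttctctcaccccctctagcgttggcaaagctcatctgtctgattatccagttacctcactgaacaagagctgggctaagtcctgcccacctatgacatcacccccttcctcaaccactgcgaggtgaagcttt
Sema6d, first start: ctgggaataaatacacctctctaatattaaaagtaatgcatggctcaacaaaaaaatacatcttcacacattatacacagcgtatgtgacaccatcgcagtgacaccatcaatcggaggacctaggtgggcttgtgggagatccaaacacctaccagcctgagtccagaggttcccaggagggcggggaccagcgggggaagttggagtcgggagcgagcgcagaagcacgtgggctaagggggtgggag
Sema6d, second start: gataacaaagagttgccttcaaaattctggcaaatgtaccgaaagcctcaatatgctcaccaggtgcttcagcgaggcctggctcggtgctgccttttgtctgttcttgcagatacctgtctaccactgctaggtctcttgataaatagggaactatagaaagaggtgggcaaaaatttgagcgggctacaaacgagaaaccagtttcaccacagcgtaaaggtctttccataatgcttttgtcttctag
None of these 3 windows held any of the 4 hexamers. Of all 32851 such windows 38.6% held at least 1 of the 4 and 14% held AGGTCA itself. Among the 75 windows of the 59 guidance genes in the table, 20 (26.7%) held such a hexamer and 10 (13.3%) held AGGTCA. Direct repeats of these hexamers with gaps of 5, 4, 2 or 1 bases occurred in 29, 22, 57 and 54 of all windows and in 0 guidance windows. They are so rare among the 32851 windows that 0 is the usual outcome for 75 windows, and it tells nothing about the guidance genes. GC content was 50% for Flrt3 and 52.4% and 45.2% for the Sema6d windows, against a median of 52.4% over all windows. The search covers only these letters in these windows.

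**Figure D1:**
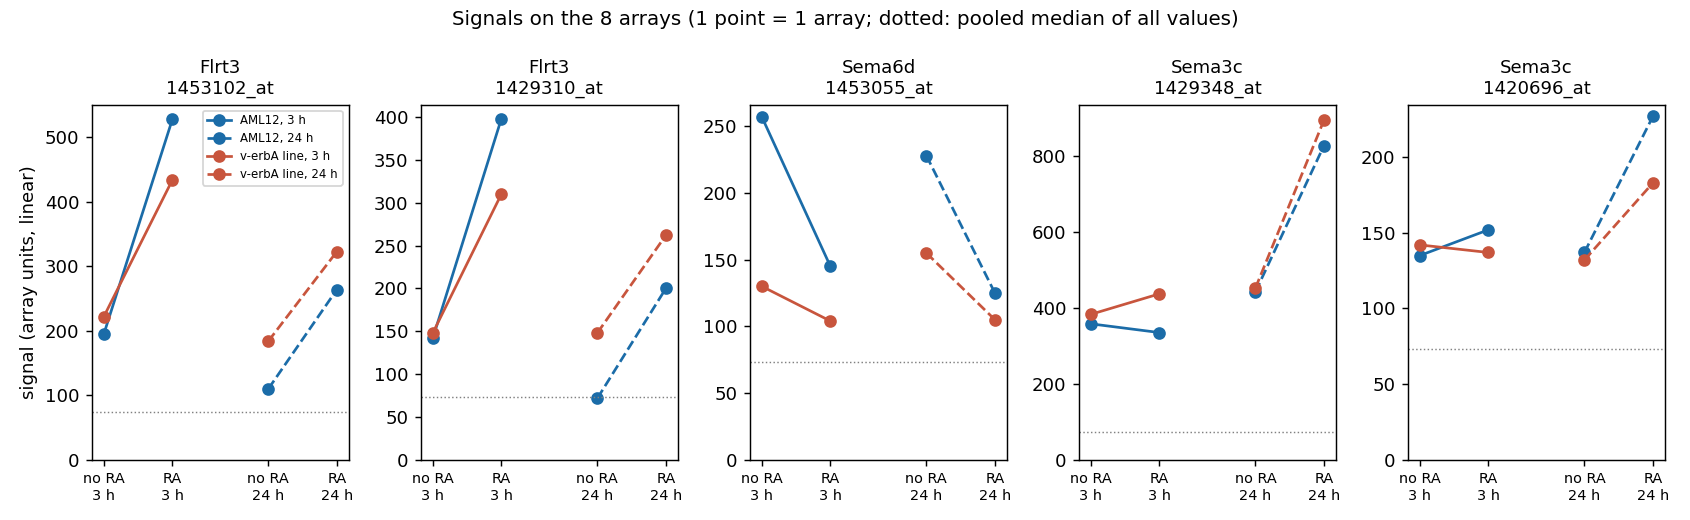
Linear signals (array units) of both Flrt3, 1 Sema6d and both Sema3c probe sets on each of the 8 arrays, with untreated and RA arrays of the same line and time joined; blue is AML12, red the v-erbA line, solid 3 h, dashed 24 h, and the dotted line the pooled median of 73.5 units. Flrt3 rose and Sema6d was lower with RA in all 4 pairs, while Sema3c was far higher with RA at 24 h, with no gap of that size at 3 h.

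Efnb1 and Plxna2 were lower with RA in every pair on more than 1 probe set without passing the threshold. All 3 tested probe sets of Efnb1, a transmembrane ephrin, were lower in 4 of 4 pairs, with differences of -0.26 (adjusted p = 0.0954), -0.25 (0.154) and -0.25 (0.253). Plxna2, a receptor for class 6 and, with neuropilins, class 3 semaphorins, was lower in 4 of 4 pairs on 3 probe sets, with differences of -0.27 (0.123), -0.24 (0.168) and -0.27 (0.187). The fourth Plxna2 probe set differed by -0.13 ± 0.09 and was lower in 3 of 4 pairs. Robo4, known from endothelium, read 66.5, 108, 69.1 and 82 units untreated and 46.4, 66.2, 57.7 and 59.7 with RA, lower in 4 of 4 pairs and not called (adjusted p = 0.204), with every RA array below the median. Robo3 was not called either (adjusted p = 0.263), with untreated AML12 at 91 and 150 units and the other 6 arrays at 47.5 to 59.3 units, below the median. Among other receptors, the RA difference was 0.03 and -0.08 for the Unc5b probe sets, 0.08 for Epha2, 0.13 for Ephb4 and -0.04 for Plxnb2. None of these passed, and the widest 95% interval among them, that of Unc5b 1453269_at, ran from -0.26 to 0.11.

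**Figure D2:**
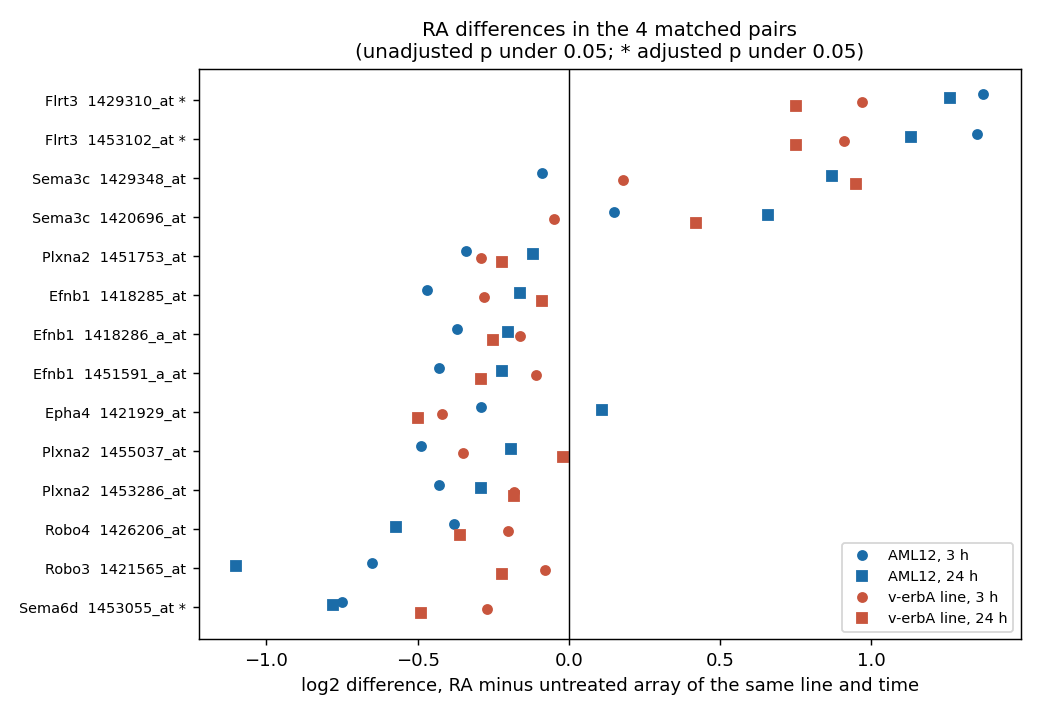
Log2 difference between the RA and the untreated array of the same line and time (x axis) for each tested guidance probe set with an unadjusted limma p under 0.05 for RA; circles are 3 h, squares 24 h, blue AML12, red the v-erbA line, and an asterisk marks an adjusted p under 0.05. The 2 Flrt3 probe sets lie right of 0 and the Sema6d probe set left of 0 in all 4 pairs, and the Sema3c squares lie right of their circles. Robo3 and Robo4 are placed with all RA arrays below the median.

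The study set RA responses with v-erbA beside those without it. In AML12 alone, 2 guidance probe sets passed, both of Flrt3 (2.6% against 0.309% of all). Flrt3 rose by 1.24 ± 0.16 on 1453102_at (SE, adjusted p = 0.0249) and by 1.31 ± 0.21 on 1429310_at (adjusted p = 0.0441), and Sema6d differed by -0.76 ± 0.13 (adjusted p = 0.0545). In the v-erbA line limma called 0 of the 77, and 0% of all probe sets, at this threshold. At an unadjusted p under 0.05 there were 7 guidance probe sets, 9.09% against 3.45% of all. There Flrt3 differed by 0.83 ± 0.16 (95% interval 0.47 to 1.18; adjusted p = 0.294) and 0.86 ± 0.21 (adjusted p = 0.582), higher in both pairs, and Sema6d by -0.38 ± 0.13 (adjusted p = 1.00). The model with all pairwise interactions called 3 guidance probe sets in the v-erbA line, among them both of Flrt3 (adjusted p = 1.46e-04 and 2.47e-04, where the alternatives of the pair ran up to 1.00).

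The difference of the RA response between the lines was tested directly, and limma called 0 guidance probe sets and 0% of all. At an unadjusted p under 0.05 there were 2 guidance probe sets, 2.6% against 1.89% of all. For Flrt3 the v-erbA response minus the AML12 response was -0.42 ± 0.22 (SE; 95% interval -0.91 to 0.08) and -0.45 ± 0.29 (interval -1.11 to 0.21). For Sema6d it was 0.38 ± 0.18 (interval -0.03 to 0.79). Both genes' responses were nearer to 0 in the v-erbA line on each probe set, and each interval included 0. The smallest p belonged to Flrt2 and Robo3, both with untreated AML12 arrays above the median and the 4 v-erbA arrays below it, so that no size is given, and their adjusted p was 1.00. The Flrt3 calls in AML12 were sensitive to single arrays. The call for 1453102_at was lost without RA-treated AML12 at 3 h (adjusted p = 0.0731), untreated AML12 at 24 h (0.133) or RA-treated AML12 at 24 h (0.0532), over a range of 3.24e-07 to 0.164. That for 1429310_at was lost without the same 3 arrays (up to 0.229) and without the untreated v-erbA arrays of 3 h (0.0537) and 24 h (0.0557). The AML12 count was then 0 without any of the first 3 arrays, and 1 without either of the last pair.

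RA responses at 24 h were also set against those at 3 h, averaged over the lines. Sema3c, a secreted semaphorin that signals through neuropilins and plexins, had the smallest p of the guidance genes. Its probe set 1429348_at read 358 untreated and 335 units with RA in AML12 at 3 h, and 383 and 437 units in the v-erbA line. At 24 h it read 442 and 827 units in AML12 and 452 and 894 in the v-erbA line. The treated arrays of 24 h were the highest of the 8 in both lines, and the 3 h pairs differed by little and in opposite directions. The 24 h response exceeded the 3 h response by 0.87 ± 0.13 (SE; 95% interval 0.57 to 1.16), which did not pass (adjusted p = 0.198). A second Sema3c probe set, 1420696_at, gave 135 and 152, then 142 and 137 units at 3 h, and 137 and 227, then 132 and 183 units at 24 h, a difference of 0.49 ± 0.16 (adjusted p = 0.637). Limma called 0 guidance probe sets here and 0.00801% of all, with 11 guidance probe sets at an unadjusted p under 0.05 (14.3% against 7.21% of all). The model with all pairwise interactions called 1, Sema3c 1429348_at (adjusted p = 6.58e-04, in a range up to 0.743 over its alternatives), and 1.07% of all probe sets. The Flrt3 response differed between the times by -0.19 (adjusted p = 0.905) and -0.17 (0.941).

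The comparison of the v-erbA line with AML12 concerned many more guidance genes. It called 37 of the 77 probe sets, 20 higher and 17 lower, or 48.1% against 49.7% of all probe sets tested, so the guidance genes moved about as often as any others. The 37 belonged to 28 genes, 12 higher and 16 lower, and 36 had the same direction in all 4 matched pairs. Several of the 37 entered the test only through the line in which they are high, as given below. The median difference was 0.07 for guidance probe sets and 0.02 for all. In the v-erbA line, Ntn4, Efnb2, Plxna2, Unc5b and Epha7 were higher, and Sema4g, Sema3f, Nrp2, Sema6d and Sema4d were lower, not always on every tested probe set. The samples hold no AML12 line transfected without v-erbA. Thus v-erbA itself and any other change in the transfected line cannot be told apart here. The neuronal and mesenchymal marker sums given above were higher in the v-erbA line and the biliary sum lower, the hepatocyte sums overlapped, single markers went both ways, and their part in these differences was not tested.

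Among ligands, Ntn4, a laminin-related netrin of basement membranes, rose most. Its probe set 1439794_at read 191, 168, 193 and 188 units in AML12 and 401, 407, 464 and 434 in the v-erbA line (untreated and RA at 3 h, then untreated and RA at 24 h, an order kept below). The groups did not overlap, and the difference was 1.12 ± 0.06 (SE, adjusted p = 7.48e-07). The second Ntn4 probe set read 75.2, 76.3, 71.3 and 71.5 units against 130, 137, 140 and 127, a difference of 0.71 ± 0.08 (adjusted p = 6.60e-05). Ntn1, the best known netrin, was dim on both probe sets, at 24.3 to 60.6 units.

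The promoter window of Ntn4, at chr10:93640799-93641048 (plus strand, GRCm38.p6, RefSeq), is shown because thyroid hormone and retinoic acid receptors share the AGGTCA hexamer, in capitals here.
Ntn4: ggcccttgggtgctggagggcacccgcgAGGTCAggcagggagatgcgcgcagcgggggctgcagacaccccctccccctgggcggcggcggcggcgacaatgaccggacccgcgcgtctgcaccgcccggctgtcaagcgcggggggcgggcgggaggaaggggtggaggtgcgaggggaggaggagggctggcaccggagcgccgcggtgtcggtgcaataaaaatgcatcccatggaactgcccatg
It held 1 AGGTCA on the plus strand, 222 bases before the annotated start, as did 14% of all windows for that motif on either strand. Its GC content was 73.2%.

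Semaphorins gave 2 higher and 6 lower calls among 21 tested probe sets. Sema4g, a membrane-bound semaphorin, read 296, 276, 577 and 506 units in AML12 and 125, 124, 163 and 226 in the v-erbA line, and fell by 1.24 on the log2 scale (SE 0.11, adjusted p = 1.40e-05). Every v-erbA array lay below every AML12 array. Sema3f, a secreted ligand of neuropilin-2, fell by 0.89 (SE 0.06, adjusted p = 5.22e-06) on probe set 1425840_a_at, from 326, 287, 391 and 317 to 158, 154, 186 and 178 units. Its other tested probe set, 1438947_x_at, of a kind whose probes may also match other transcripts, read 592 to 1042 units in AML12 and 646 to 1040 in the v-erbA line and differed by 0.07. Thus the 2 Sema3f probe sets did not give the same picture. Sema6d was lower by 0.50 (SE 0.10, adjusted p = 0.00277), Sema4d, the ligand of plexin-B1, by 0.38 (SE 0.07, adjusted p = 0.00208), and Sema4b by 0.22. Sema4a was lower by 0.34 on 1448110_at, while its brighter probe set, 1438934_x_at, was higher in 3 of 4 pairs and not called (0.14, adjusted p = 0.0752). The higher calls were Sema5b, at 50.6 to 66.3 units in AML12, all below the median, and 75.4 to 96.1 in the v-erbA line (at least 1.14-fold), and 1 of the 4 Sema3e probe sets (0.25). Sema5b entered the test only through the v-erbA arrays, where it is high.

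Ephrins gave 3 higher and 5 lower calls among 14. Efnb2, a transmembrane ephrin that marks arteries and binds Ephb4, read 305, 304, 164 and 222 units in AML12 and 408, 444, 330 and 391 in the v-erbA line on 1419638_at. All v-erbA arrays were higher than all AML12 arrays, by 0.65 ± 0.09 (SE, adjusted p = 3.63e-04), and 1419639_at gave 0.65 ± 0.08 (adjusted p = 9.92e-05). The 2 dimmer Efnb2 probe sets, at 63.8 to 119 units, differed by 0.10 and -0.21 and did not pass. Efna4 was higher by 0.29. Efnb3 was lower by 0.40, Efna2 by 0.29, Efna1 by 0.24 on 1 of 2 probe sets, Efnb1 by 0.19 on 1 of 3 and Efna5 by 0.18.

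Among receptors, all 4 tested Plxna2 probe sets were higher in the v-erbA line, by 0.58, 0.54, 0.49 and 0.38 (adjusted p from 2.59e-04 to 0.0013). The first of these, 1429772_at, read 68 to 80.5 units in AML12 and 105 to 132 in the v-erbA line. It reached the 2 arrays needed for the test only with the v-erbA arrays, where it is high. The brightest, 1455037_at, read 470, 329, 428 and 371 units in AML12 and 695, 541, 559 and 550 in the v-erbA line, with no overlap. The remaining plexin call was Plxna3 (0.33), so that plexins gave 5 higher and 0 lower calls among 14 probe sets. Plxnb2, a receptor of class 4 semaphorins, read 1764 to 2064 units in AML12 and 1789 to 2038 in the v-erbA line, with a difference of 0.00 ± 0.03 (adjusted p = 0.981). Plxna1 differed by 0.12 on its brighter probe set (adjusted p = 0.224).

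The neuropilins moved the other way from Plxna2. Nrp2 read 275, 300, 183 and 236 units in AML12 and 177, 185, 117 and 118 in the v-erbA line on 1435349_at. Within each matched pair the v-erbA array was lower, although the ranges overlapped across times, and the difference was -0.67 ± 0.07 (SE, adjusted p = 6.50e-05). A second Nrp2 probe set fell by 0.40 (SE 0.09, adjusted p = 0.00461) and the third differed by -0.19 (adjusted p = 0.0974). The second, 1426528_at, reached the 2 arrays needed for the test only with the AML12 arrays, where it is high. Nrp1 fell by 0.40 (SE 0.12, adjusted p = 0.0218) on 1448943_at. On its other tested probe set, 1457198_at, every v-erbA array lay below the median (54.8 to 72 units, against 66.5 to 119 in AML12), and it did not pass (adjusted p = 0.0574).

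Unc5b, a netrin and Flrt receptor, was higher on both tested probe sets. Its signals on 1435110_at were 769, 754, 662 and 739 units in AML12 and 1058, 1024, 968 and 998 in the v-erbA line, which did not overlap. The differences were 0.46 ± 0.05 (SE, adjusted p = 5.45e-05) and 0.50 ± 0.08 (adjusted p = 8.57e-04). Eph receptors gave 5 higher and 2 lower calls among 12. Epha7 rose by 0.76 ± 0.15 (adjusted p = 0.00237) and 0.52 ± 0.14 (adjusted p = 0.0100) on 2 probe sets and differed by 0.22 on the third, and Epha4 was higher by 0.35 and 0.41 on 2 of 4. Of these Epha4 probe sets, 1421929_at reached the 2 arrays needed for the test only with the v-erbA arrays, where it is high. Ephb4, the venous partner of Efnb2, was higher by 0.32 ± 0.08 (adjusted p = 0.00787). Epha2, at 659 to 927 units, was lower by 0.26. Epha8 was called lower by 0.59, but it reached the 2 arrays needed for the test only with the AML12 arrays, where it is high. Its 24 h arrays read 5.75 to 19.8 units in both lines. With dim signals set to the median the Epha8 call was lost (-0.37, limma adjusted p = 0.0933). Neither tested Robo probe set nor Slit1, at 222 to 296 units, passed, and Robo1 and Slit2 were dim at no more than 53.6 and 33.4 units.

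Of the Flrt genes, Flrt1 was higher by 0.28 ± 0.09 (adjusted p = 0.0259), at 149 to 168 units in AML12 and 168 to 234 in the v-erbA line. Flrt2 read 92.3 and 77 units in untreated AML12, 32.2 and 47.3 in RA-treated AML12 and 29.3 to 38.2 in the v-erbA line. It was called lower (adjusted p = 0.0307), but it entered the test only through the 2 untreated AML12 arrays, so no fold is given, and with dim signals set to the median the call was lost (adjusted p = 0.315). Flrt3 itself differed by 0.21 ± 0.12 (adjusted p = 0.189) and 0.24 ± 0.16 (adjusted p = 0.239).

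Many v-erbA calls held in every alternative run that tested them, among them both Ntn4 probe sets, Sema4g, Sema3f 1425840_a_at, both Unc5b probe sets, Efnb2 1419638_at and 1419639_at, both called Nrp2 probe sets, Sema6d, Sema4d and Ephb4. Others depended on single arrays. Efnb3 was lost without RA-treated AML12 at 3 h (adjusted p = 0.0905), untreated AML12 at 24 h (0.0592), or v-erbA untreated at 3 h (0.0578), untreated at 24 h (0.0864) or RA-treated at 24 h (0.0650), in a range from 0.00395. Nrp1 1448943_at was lost without the same 5 arrays (0.0777, 0.0583, 0.0542, 0.0714 and 0.0639; range from 0.00518). Epha2 was lost without untreated AML12 at 3 h (0.0770), RA-treated AML12 at 24 h (0.0706), RA-treated v-erbA at 3 h (0.0762) or untreated v-erbA at 24 h (0.0694; range from 6.36e-04), and also without the trend (0.0513). Flrt1 was lost without any 1 of the 4 arrays of 24 h (0.0641 and 0.0835 for AML12, 0.0854 and 0.0983 for v-erbA, untreated and RA; range from 0.00951). Flrt2 was lost without any 1 of the 4 untreated arrays (0.109 and 0.0777 for AML12 and 0.0937 and 0.115 for v-erbA, 3 h and 24 h; range 0.00112 to 0.315), and Efna1 1448510_at without 5 arrays (RA-treated AML12 at 3 h 0.170, untreated AML12 at 24 h 0.0934, and v-erbA untreated at 3 h 0.157, RA at 3 h 0.0627 and RA at 24 h 0.151; range from 0.0141). The Efna1 call was also lost with no filter (0.0637), quantile normalization (0.0546), no trend (0.0639) and dim signals set to the median (0.0649). Flrt3 passed without RA-treated AML12 at 3 h (0.35, adjusted p = 0.0217, and 0.40, adjusted p = 0.0463), and with all pairwise interactions (0.0258 and 0.0212), where its other fits ranged up to 0.756.

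**Figure D3:**
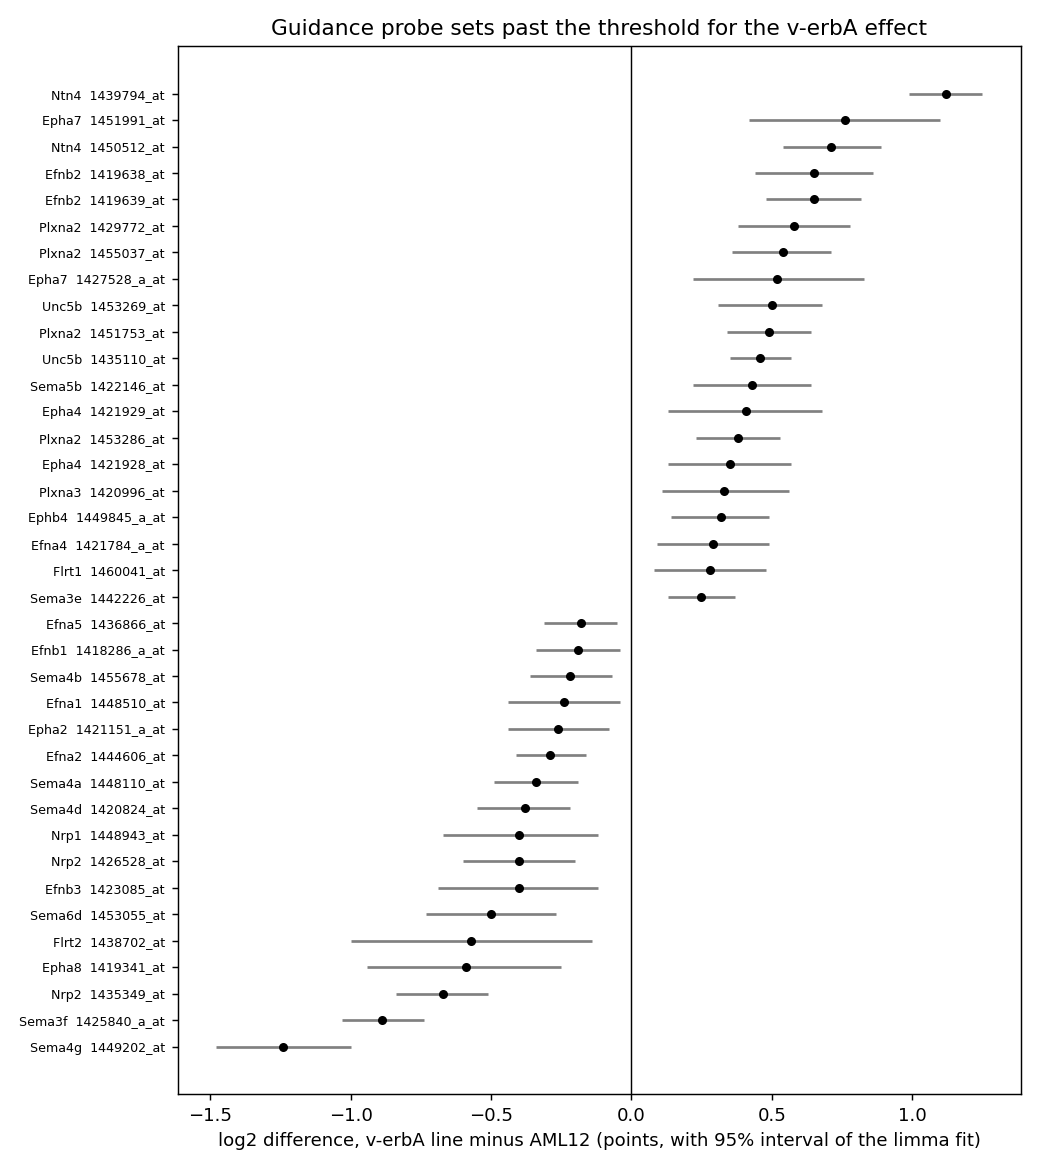
Log2 difference between the v-erbA line and AML12 (x axis; points, with the 95% interval of the limma fit over all 8 arrays) for the 37 called guidance probe sets, 20 to the right of 0 and 17 to the left. Ntn4 1439794_at lies at 1.12 and Sema4g at -1.24, and the 4 Plxna2 probe sets lie together between 0.38 and 0.58. The positions of Flrt2 and Sema5b are fitted with the lower line below the median on every array.

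Whether the v-erbA difference itself changed between 3 h and 24 h was tested as an interaction. Limma called 0 guidance probe sets and 0.112% of all, with 10 guidance probe sets at an unadjusted p under 0.05 (13% against 8.67% of all). The smallest p among the guidance genes was that of Flrt3 1429310_at, whose v-erbA difference was higher at 24 h by 0.76 ± 0.21 (SE, adjusted p = 0.329), with 0.52 ± 0.19 (adjusted p = 0.506) on the other probe set. Only the model with all pairwise interactions called it (adjusted p = 0.0191, in a range up to 0.896 over its alternatives).

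Cytoplasmic and co-receptor partners of these ligands and receptors were followed through a list of 61 genes, of which 59 were on the array and 48 tested, with 1 probe set per gene. For RA 0 rose and 1 fell (2.08% of those tested, against 1.15% of all probe sets). It was Rnd3, a plexin-binding protein that loosens actin fibres. Rnd3 read 439, 279, 444 and 271 units in AML12 and 584, 510, 688 and 524 in the v-erbA line, lower with RA in 4 of 4 pairs. Its RA difference was -0.47 ± 0.08 (SE, adjusted p = 0.0293) over both lines and -0.65 ± 0.09 (adjusted p = 0.0294) in AML12. Over both lines that call was lost without untreated AML12 at 3 h (0.108), RA-treated AML12 at 3 h (0.151), untreated AML12 at 24 h (0.0770), RA-treated AML12 at 24 h (0.0751) or untreated v-erbA at 24 h (0.122), in a range from 6.61e-05. The AML12 call was lost without untreated (0.0502) or RA-treated AML12 at 3 h (0.0706), untreated (0.128) or RA-treated AML12 at 24 h (0.288), or untreated v-erbA at 3 h (0.0537) or 24 h (0.0557), in a range from 1.19e-04.

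In the v-erbA line 14 partners were called higher and 9 lower, 47.9% of the 48 tested, against 49.7% of all probe sets. Evl, an actin-polymerizing Ena/VASP protein, read 67.6, 52.3, 36.7 and 61.1 units in AML12, all below the median, and 331 to 361 units in the v-erbA line, at least 3.85-fold higher. Chn1, a Rac-directed GTPase-activating protein of ephrin receptor signalling, was at 5.67 to 15.6 units in AML12 and 86.6 to 100 units in the v-erbA line, at least 1.21-fold higher. Evl and Chn1 entered the test, and the count of 14, only through the v-erbA arrays, where they are high. Rnd3 and Enah, a second Ena/VASP protein, each rose by 0.68 on the log2 scale. Vav2, a guanine nucleotide exchange factor that acts after Eph receptors, fell from 672 to 1068 units in AML12 to 380 to 505 units in the v-erbA line (-0.93 ± 0.06). Ngef, the exchange factor ephexin, fell by 0.66, Dpysl2, a tubulin-binding mediator of semaphorin signals, by 0.50, and Vav3 by 0.38. Each of these 8 v-erbA differences passed in every alternative run that tested it. Chn1 was too dim on average to be tested in the run with the filter on the mean.

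Time in culture was the last comparison, 24 h against 3 h over both lines and treatments. It called 35 of the 77 guidance probe sets, 18 higher and 17 lower at 24 h, or 45.5% against 30.4% of all, and 33 of them had the same direction in all 4 pairs. Several of the 35 entered the test only through the time at which they are high, as given below. With dim signals set to the median the count was 26, with 26.8% of all probe sets called. Eph receptors gave 3 higher and 6 lower calls among 12, semaphorins 8 higher and 1 lower among 21, and plexins 6 higher and 2 lower among 14. Both tested probe sets of Plxnb1, the Sema4d receptor, rose, by 0.53 ± 0.06 (SE, adjusted p = 1.09e-04) and 0.44 ± 0.06 (adjusted p = 4.19e-04), and Sema4g rose by 0.72 ± 0.11 (adjusted p = 6.86e-04). Flrt3 fell by 0.58 and 0.49, and Nrp2 fell by 0.49 and 0.39 on 2 probe sets. Sema3c rose by 0.69 ± 0.15 (adjusted p = 0.00727) on 1429348_at, mostly on the RA arrays. Its untreated signals went from 358 to 442 units in AML12 and from 383 to 452 in the v-erbA line. Those with RA went from 335 to 827 and from 437 to 894 units. On 1420696_at untreated signals went from 135 to 137 and 142 to 132 units, and those with RA from 152 to 227 and 137 to 183. The labels give no batch, and arrays of one time share any handling of that time, so time and batch cannot be told apart.

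The largest time differences were on single probe sets. Ephb3 read 137, 212, 163 and 153 units at 3 h and 19, 6.96, 7.02 and 10.3 at 24 h, at least 1.97-fold lower (limma adjusted p = 1.44e-06). It entered the test only through the 3 h arrays, where it is high. Plxna1 1421232_at read 16.5 to 31.6 units at 3 h and 113 to 127 at 24 h, at least 1.53-fold higher, whereas its brighter probe set, at 502 to 689 units, differed by 0.18. Epha7 1443485_at read 84.6 to 124 units at 3 h and 304 to 419 at 24 h, a difference of 1.53 ± 0.10 (adjusted p = 2.42e-06), while the 2 other tested Epha7 probe sets differed by 0.31 and 0.41. Epha1 1422917_at had a fitted rise of 1.74 (1.41 to 1.98 over its alternatives), with 3 h arrays at 34.2 to 75 units, mostly below the median. Its other probe sets were dim and differed by 0.33 and -0.13. Efna3 1431170_at rose by at least 1.34-fold. Epha8, Sema4f and Epha4 1429021_at fell, the first pair by at least 1.32-fold and 1.12-fold and Epha4 by 1.11 on the log2 scale. Epha4 was the one gene whose other tested probe sets also fell, by 0.62 and 0.55 and, where the 24 h arrays were all dim, at least 1.24-fold.

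On the fitted log2 scale 8 genes had a called time difference of 1 or more, 4 in each direction. For 5 of them (Ephb3, Plxna1, Efna3, Epha8 and Sema4f) all arrays of one time were below the median, so the data support only the bounds above, each under 2-fold. These 5 probe sets entered the test, and the count of time calls, only through the time at which they are high. The same holds for Epha4 1439757_s_at and Plxnb3 1440813_s_at, whose 24 h arrays were all below the median. Epha1 1422917_at and Epha4 1429021_at also reached the 2 arrays needed only with the arrays of the time at which they are high. Of the 8 genes, Ephb3 and Epha8 had no other probe set, and the other 6 had 12 other probe sets, 6 of them tested. None of these 6 showed a called difference of that fitted size, and the rest were too dim to be tested. Over all comparisons 19 guidance genes had more than 1 tested probe set. All tested probe sets of a gene had the same sign in 13 of the 19 for v-erbA, 11 for RA and 14 for time. Of the 14 genes with a called probe set for v-erbA, 3 were called on all of theirs, and for time 5 of 14, while for RA the 1 such gene, Flrt3, was called on both.

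**Figure D4:**
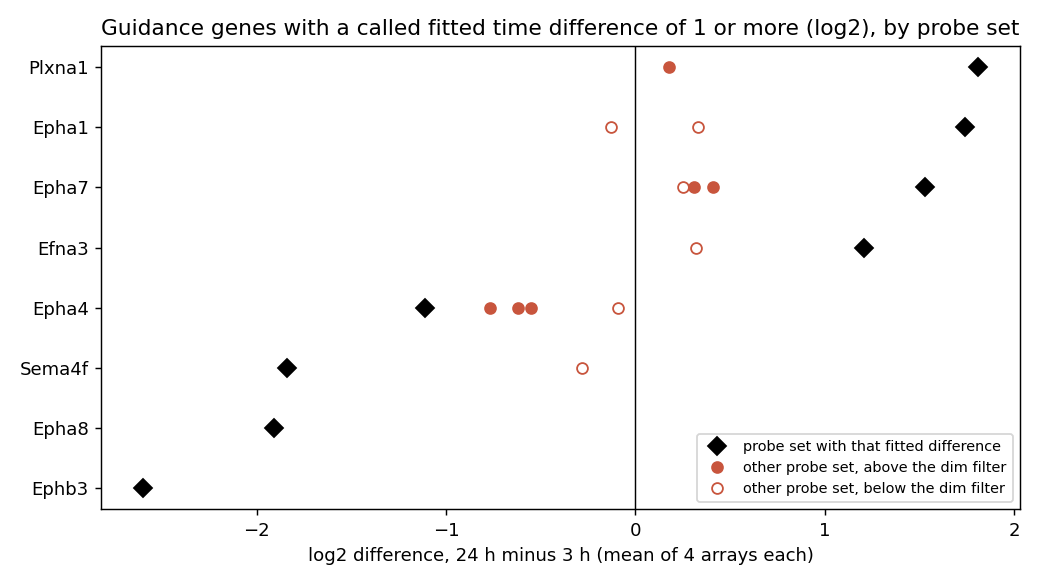
Log2 difference between the mean of the 4 arrays of 24 h and of the 4 arrays of 3 h (x axis) for the 8 guidance genes with a called fitted difference of 1 or more; diamonds are the probe sets with that difference, filled circles other tested probe sets and open circles dim ones of the same gene. The positions of Ephb3, Plxna1, Efna3, Epha8 and Sema4f are fitted over dim signals, for which the text gives bounds. Of the 6 filled circles 0 show a called difference of that size, and the open circles were not tested.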

How the data were processed

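Total RNA from 8 samples was labelled with biotin and hybridised to Affymetrix arrays, per the labels' protocols. The table deposited by the authors holds 1 linear signal intensity per probe set and array. The labels used here do not name the probe summarization or the scaling, which was kept (array medians 71.2 to 76.1 units). Of 45037 probe sets, 1 without values on the 24 h arrays was left out. Platform annotation named 1 gene for 34944 probe sets, several for 932 and none for 9160. With 1 array per combination, the number of arrays limits the precision.

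Values were analysed as log2(signal + 19.9), the offset being the 20th percentile of all values. Limma 3.58.1 (R 4.3.3, mean-variance trend) fitted line, treatment and time additively over all 8 arrays, or with 1 interaction term, and p-values were adjusted over 24955 probe sets (Benjamini-Hochberg). A group with every array below the pooled median gave a bound on the fold, taken against that median. On simulated data 95% (v-erbA) and 94% (RA) of 200 probe sets changed by 1 on the log2 scale, among 24955, were recovered. The simulated noise was independent and took the residual spread of these 8 arrays, so it holds no spread between cultures. Far fewer probe sets were changed in it than limma called for v-erbA. Alternatives were offsets of 5 and 50, no filter, a filter on the mean, median centring, quantile normalization, no trend, 1 probe set per gene, dim signals set to the median, all pairwise interactions, leaving out each array and, chosen after seeing the data, matched pairs as a block. Figures used matplotlib 3.10.9 in Python 3.11.15.

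The members and lists were chosen with earlier results of these data known. Named are the 10 highest and 10 lowest v-erbA calls with 1 direction in 4 pairs, all calls for RA, the 3 smallest p where none passed, the 6 highest and 6 lowest for time, a fixed list of receptors and ligands, and at most 4 called partners each way. Other members named were chosen after their values were seen.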

Additional observations from a re-analysis of the deposited data

Results flagged for a closer look

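For Epha7, an Eph receptor, the sign of the RA difference was opposite at the 2 times in both lines, although the v-erbA pair of 3 h was nearly equal. On 1451991_at the RA arrays read lower at 3 h (120 to 92.8 units in AML12, 173 to 172 in the v-erbA line) and higher at 24 h (95.7 to 178 and 231 to 299). The 24 h response minus the 3 h response was 0.72 ± 0.21 (log2, SE), which limma did not call (adjusted p = 0.564). The other Epha7 probe sets gave 0.46 (adjusted p = 0.614) and 0.59 (adjusted p = 0.637).

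For Epha2 the RA arrays read lower at 3 h (912 to 805 and 703 to 678 units) and higher at 24 h (713 to 927 and 659 to 739), a difference between times of 0.38 ± 0.11 that limma did not call (adjusted p = 0.566).

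Epha1 1422917_at was lower with v-erbA in both pairs of 3 h (69.2 to 51.6 units untreated, 75 to 34.2 with RA) and higher in both pairs of 24 h (261 to 277 and 188 to 215). The v-erbA difference at 24 h minus that at 3 h was 0.69 ± 0.20 (adjusted p = 0.377), and 3 of the 4 arrays of 3 h lay below the pooled median.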

How the results depend on the processing

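No called value of a named probe set changed sign under any alternative run. Of the recomputed values of named probe sets, 1640 stayed on their side of the threshold within the tolerance, 76 lost the call, 13 gained one and 29 that were not called moved by more than their error. With 1 probe set per gene, which leaves 46 genes, the v-erbA count was 22 (53.4% of all genes called) and the time count 23 (34.7% of all). RA calls depended most on the model of the spread, over all probe sets as well. Without the mean-variance trend 0 guidance calls remained for RA and 0 for RA in AML12, with 0.1% and 0% of all probe sets called. With all pairwise interactions there were 9 and 10, with 5.93% and 5.52% of all probe sets called. The model with all pairwise interactions also gave 3 for RA in the v-erbA line (0.95% of all probe sets called). It gave 1 for the RA difference between times (1.07% of all) and 1 for the v-erbA difference between times (1.51% of all). RA in AML12 gave 1 with quantile normalization (0.248% of all), 1 with 1 probe set per gene (0.308%) and 0 with dim signals set to the median (0.0441%). The cause was not tested. Leaving out 1 array gave 27 to 37 calls for v-erbA, 1 to 3 for RA, 29 to 34 for time and 0 to 3 for RA in AML12. With dim signals set to the median, Epha8 (-0.37, adjusted p = 0.0933) and Flrt2 (-0.08, 0.315) lost the v-erbA call, Epha8 (-0.40, 0.104), Sema4f (-0.19, 0.143) and Plxnb3 (-0.23, 0.0578) the time call, and Sema6d (0.0584) and Rnd3 (0.0562) the RA call. Without the trend both Flrt3 probe sets (0.0682 and 0.0891) and Sema6d (0.105) lost the RA call. The labels give no replicate numbers. A fit with the matched pairs as a block, chosen after seeing the data, gave 39 calls for v-erbA, 3 for RA and 31 for time. Of all probe sets it called 50.3%, 1.33% and 27%. Both Flrt3 probe sets and Sema6d were called for RA (limma adjusted p = 0.00237, 0.00250 and 0.0288). Signals of dim probe sets limit the values below the pooled median, where folds are bounds or not given.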
